A study of Mus musculus with 14 samples.

Results

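Lin28a-RIP and Igf2bp3-RIP of Lin28a+ muscle stem cells (MuSCs) were set side by side, gene by gene. In RIP-seq, RNA is pulled down with an antibody against an RNA-binding protein and sequenced, and a peak is a stretch of transcript where reads accumulate. The counts of all peaks of a gene were summed in each pull-down and expressed as counts per 1000000 counts of that table (CPM), so that a gene's value is its share of the pull-down. Of 16086 genes in any table of the series, 5282 had a peak in at least one of the pull-downs. Peaks in both were listed for 2738 genes, peaks in Lin28a-RIP only for 755 and peaks in Igf2bp3-RIP only for 1789. The cells were MuSCs from mouse skeletal muscle, grown on Matrigel-coated plates. The genotype is labelled Lin28a positive, and the study sorted these cells from mice that carry *Lin28a-CreERT2*, a tamoxifen-inducible Cre under Lin28a control, and the reporter *LSL-tdTomato*. The reporter marks cells in which the Cre was active when it was induced, and it does not measure the present level of Lin28a. Each pull-down had 2 libraries. Igf2bp3-RIP of control MuSCs (2 libraries) and input RNA-seq of control and Lin28a+ MuSCs (2 libraries each, no pull-down) were used as references, and Lin28a-RIP covered Lin28a+ cells only. In the input table the Lin28a+ columns bear the name of the m6A pull-down, and they were read as Lin28a+ input from the table they stand in. Whether they are input libraries could not be checked, which limits every input value of Lin28a+ cells given here. The age of the mice and whether replicates came from separate cultures or animals are not given in the sources used here, so p-values measure the spread between these libraries, which may be technical.

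Lin28a binds the precursors of let-7 microRNAs through a cold-shock domain and zinc knuckles and blocks their maturation, and it also binds many mRNAs, largely in their coding regions and 3′ untranslated regions. Igf2bp3 belongs to a family of proteins with KH and RRM domains that bind mRNAs, are described as readers of N6-methyladenosine (m6A) and protect transcripts from decay. Both proteins are known from embryonic tissues and tumours and decline in most adult tissues. In muscle, MuSCs are marked by Pax7, become myoblasts under Myf5 and Myod1, and then fuse.

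The deposited peaks held 36610494 and 33908110 counts in the 2 Lin28a-RIP libraries and 12617254 and 34142094 in the 2 Igf2bp3-RIP libraries. Lin28a-RIP had 21616 peaks over 9.30 Mb and Igf2bp3-RIP 19465 peaks over 8.33 Mb, with a median width of 285 and 271 bp. The Lin28a-RIP replicates lay closer together than the Igf2bp3-RIP replicates, with an SD of the log2 ratio of replicate 2 to replicate 1 across genes of 0.17 against 0.57. In Igf2bp3-RIP, 21 genes differed over 4-fold between the replicates, against 2 in Lin28a-RIP. All 7 myogenic markers were listed in the Lin28a+ input, with a summed level of 8840 and 8953 input CPM. The largest were *Myod1* (4752 and 4775) and *Cdh15* (2286 and 2373), while *Vcam1* was at 4.00 and 5.28. The 5 fibro-adipogenic progenitor markers listed summed to 78.8 and 79.1. Most of that sum was *Gsn*, an actin-severing protein that other cells also express (63.5 and 64.5 input CPM), and *Ly6a* (13.6 and 12.7), while the defining marker *Pdgfra* was at 0.088 and 0.092. The 5 endothelial markers listed summed to 1.76 and 1.96 input CPM and the 5 macrophage markers to 1.61 and 2.44. The 8 pericyte and smooth muscle markers summed to 7763 and 7776 input CPM, of which *Acta2*, an actin that cultured myoblasts also express, was 7484 and 7495. None of these other-cell markers except *Gsn* and *Notch3* had a peak in either pull-down.

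Genes shared by the pull-downs carried most of the counts. They held 95.0% and 95.1% of the Lin28a-RIP counts and 82.8% and 85.1% of the Igf2bp3-RIP counts. Of the genes found in one pull-down only, 52.2% (Lin28a-RIP) and 46.8% (Igf2bp3-RIP) rested on a single peak, against 20.9% of the shared genes for their Lin28a-RIP peaks. Shared genes and genes with Lin28a-RIP peaks only had close median RNA levels in the Lin28a+ input, 4.53 and 4.57 for shared genes and 4.53 and 4.52 for Lin28a-RIP only, as log2(CPM + 1) in the 2 libraries. Genes with Igf2bp3-RIP peaks only had medians of 4.22 and 4.25, and genes with no peak in either had 2.91 and 2.91. A row in the m6A-RIP table was present for 81.7% of the shared genes, 79.7% of those with Igf2bp3-RIP peaks only and 70.1% of those with Lin28a-RIP peaks only, against 43.5% of genes with no peak. A gene absent from a table has no peak there, which is not a count of 0, so no ratio was computed for it.

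Most shared genes took unequal shares of the pull-downs. In edgeR's quasi-likelihood test, 2035 of 2738 genes (74.3%) passed an adjusted p of 0.05, 966 of them (35.3%) higher in Lin28a-RIP and 1069 (39.0%) lower in Lin28a-RIP. The log2 ratio of Lin28a-RIP to Igf2bp3-RIP fitted in this test, which is the log2 ratio given for genes below, had a median of -0.07 and ran from -6.51 (*Gsk3b*) to 5.99 (*Gcn1*), and 728 of the higher and 811 of the lower genes were over 2-fold apart. Libraries of the pull-downs did not overlap in 89.5% of genes. These are differences in share between pull-downs made with different antibodies, so they rank genes within each pull-down and do not measure how much of an RNA was bound.

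**Figure D1:**
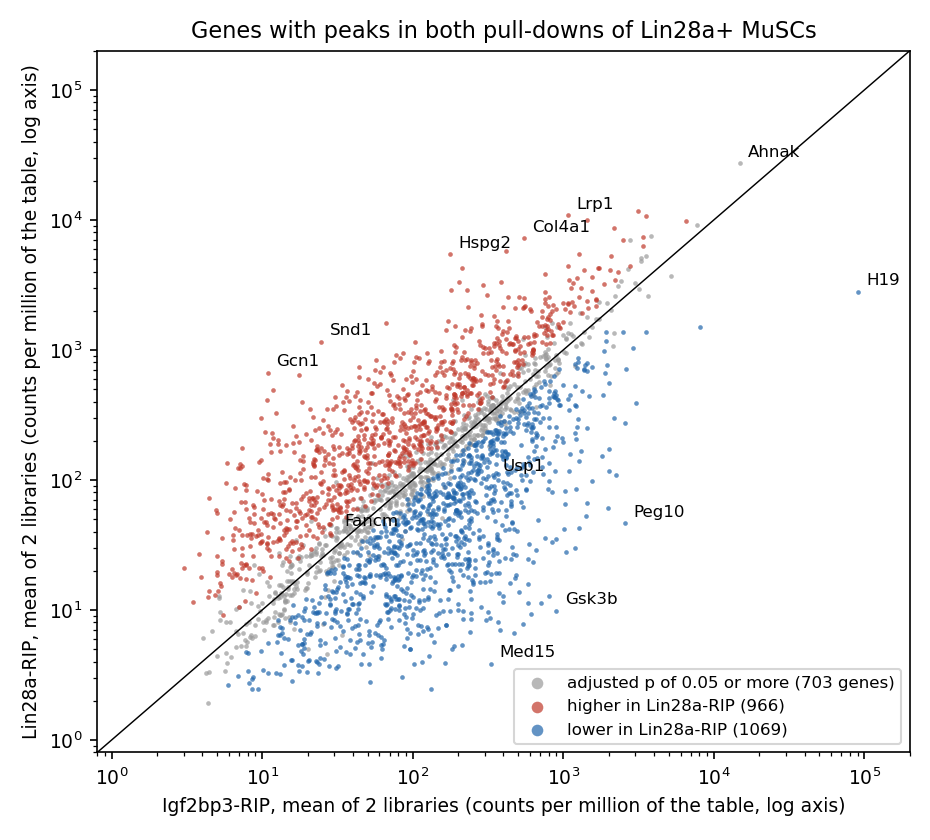
Mean CPM of Lin28a-RIP (vertical, log axis) against Igf2bp3-RIP (horizontal, log axis) for the 2738 genes with peaks in both, each point a gene and each mean over 2 libraries, with the line of equal shares. Red genes (966) were higher and blue genes (1069) lower in Lin28a-RIP at an adjusted p under 0.05, and *H19* stands far to the right of the line.

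The ratio followed the length under the peaks. Across the 2738 genes, the log2 ratio and the log2 ratio of summed peak width had a Pearson r of 0.959 and a Spearman rho of 0.955, as a description over genes that share the same 4 libraries. Genes higher in Lin28a-RIP had a median of 8 peaks covering 3289 bp in that pull-down and 3 peaks covering 876 bp in Igf2bp3-RIP. Genes lower in Lin28a-RIP had 2 peaks covering 977 bp and 5 peaks covering 2277 bp. Per kilobase of peaks, the SD of the log2 ratio fell from 1.88 to 0.61. The median over all genes was -0.47 on that scale, so the per-kilobase values below stand against -0.47, not 0. With that shift left in, 1218 genes (44.5%) passed the test, 142 (5.19%) higher and 1076 (39.3%) lower in Lin28a-RIP. With the median gene moved to 0, an alternative chosen after seeing the data and called centred here, 661 genes (24.1%) passed, 369 (13.5%) higher and 292 (10.7%) lower. Among the 966 genes higher by total counts, 134 were also higher per kilobase and 97 were lower, and after centring 338 were higher and 10 lower. Among the 1069 lower genes, 829 were also lower per kilobase and 5 were higher, and after centring 275 were lower and 9 higher.

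**Figure D2:**
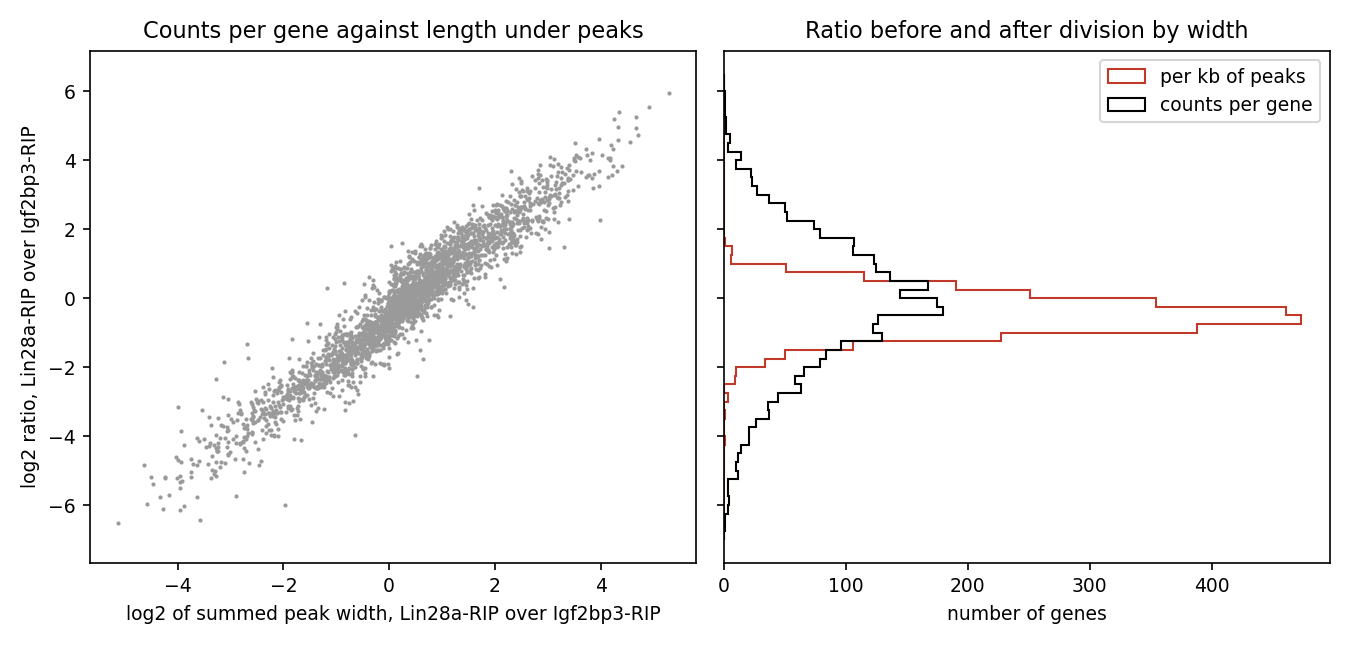
Left, log2 ratio of CPM against log2 ratio of summed peak width for the 2738 shared genes (r = 0.959). Right, numbers of genes (horizontal) by log2 ratio (vertical) for counts per gene in black and counts per kilobase of peaks in red; the red distribution is narrower (SD 0.61 against 1.88) and centred below 0.

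The genes with the highest ratios carried peaks along much of their length in Lin28a-RIP and 1 or 2 short peaks in Igf2bp3-RIP. *Gcn1*, the ribosome-associated activator of the amino acid stress kinase Gcn2, had 24 Lin28a-RIP peaks and 1 Igf2bp3-RIP peak of 229 bp (chr5:115622088-115622316). Its value was 684 and 652 CPM in the Lin28a-RIP libraries and 15.5 and 6.21 CPM in the Igf2bp3-RIP libraries (log2 ratio 5.99, SE 0.53, adjusted p = 0.000722). The pull-downs lay far apart, although the Igf2bp3-RIP replicates differed more than 2-fold from each other. *Snd1*, a nuclease of the RNA-induced silencing complex, had 21 peaks against 1 and 1182 and 1129.7 CPM against 26.8 and 22.6 CPM (log2 ratio 5.55, SE 0.16, adjusted p = 0.000146). *Mthfd1*, an enzyme of one-carbon folate metabolism, had 19 peaks against 1 and 655 and 631 CPM against 18.8 and 16.3 CPM (log2 ratio 5.20, SE 0.14, adjusted p = 0.000146). In each of these genes both Lin28a-RIP libraries lay above both Igf2bp3-RIP libraries, which was a condition of their choice. *Hspg2*, which encodes the basement membrane proteoglycan perlecan, was the most abundant of this set. It had 30 peaks over 16.4 kb in Lin28a-RIP and 2 peaks over 0.82 kb in Igf2bp3-RIP, with 5579.6 and 5389 CPM against 164 and 191 CPM (log2 ratio 4.95, SE 0.18, adjusted p = 0.000155). Others with ratios in this range were *Lrp4*, the muscle agrin receptor, *Wdr3*, a ribosome biogenesis factor, and *Spag5*, a mitotic spindle protein, with log2 ratios of 5.39, 4.91 and 4.73. Per kilobase of peaks *Lrp4* (1.05, adjusted p = 0.00901), *Mthfd1* (0.94, adjusted p = 0.00975), *Snd1* (0.64, adjusted p = 0.0231) and *Hspg2* (0.63, adjusted p = 0.0346) were higher in Lin28a-RIP, also after centring. *Gcn1*, *Wdr3* and *Spag5* had log2 ratios per kilobase between 0.02 and 0.71 that did not pass, and of these *Spag5* passed after centring (0.49, adjusted p = 0.0481).

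The genes with the lowest ratios showed the reverse layout, with a single short peak in Lin28a-RIP. *Gsk3b*, the kinase that phosphorylates glycogen synthase and β-catenin, had 1 Lin28a-RIP peak of 201 bp (chr16:38228495-38228695) and 8 Igf2bp3-RIP peaks over 7.03 kb. The largest Igf2bp3-RIP peak, chr16:38242105-38245365, lay at 98.5% of the gene and held 41.7% of its counts. *Gsk3b* was at 9.34 and 10.4 CPM in Lin28a-RIP and 939 and 857 CPM in Igf2bp3-RIP (log2 ratio -6.51, SE 0.15, adjusted p = 0.000146). *Med15*, a Mediator subunit, was at 3.52 and 4.19 CPM against 306 and 359 CPM (log2 ratio -6.43, SE 0.18, adjusted p = 0.000146). *Apbb2*, an adaptor of the amyloid precursor protein, was at 7.57 and 5.81 CPM against 387 and 551 CPM (log2 ratio -6.13, SE 0.29, adjusted p = 0.000185), and *Zmiz1*, a transcriptional coactivator, at 11.9 and 10.7 CPM against 668 and 752 CPM (log2 ratio -5.97, SE 0.15, adjusted p = 0.000146). In all of these genes the control Igf2bp3-RIP libraries were also far above the Lin28a-RIP values, at 900.3 and 817 CPM for *Gsk3b*. *Peg10*, a paternally expressed gene derived from a retrotransposon, had one 6507 bp Igf2bp3-RIP peak and one 322 bp Lin28a-RIP peak. It was at 45.5 and 47.7 CPM in Lin28a-RIP, 3565 and 1536 CPM in Igf2bp3-RIP and 5860.4 and 8691 CPM in control Igf2bp3-RIP (log2 ratio -5.77, SE 0.52, adjusted p = 0.000771). Per kilobase *Gsk3b* (-1.38, adjusted p = 0.00754), *Med15* (-2.85, adjusted p = 0.00754), *Apbb2* (-2.18, adjusted p = 0.00889) and *Zmiz1* (-1.40, adjusted p = 0.00754) were lower in Lin28a-RIP, also after centring, and *Peg10* gave -1.44 with an adjusted p of 0.0549 (-0.97 and 0.159 after centring).

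For 3 of the 8 lowest ratios the row's name and the position of its peaks did not match. Peaks named *Mir3095* overlapped *Musk*, the receptor kinase of the neuromuscular junction, with the largest at chr4:58372919-58376989 in Igf2bp3-RIP. The largest peaks named *Cldn34-ps* overlapped *Tbl1x*, a corepressor subunit, in both pull-downs, and both Igf2bp3-RIP peaks named *Usp36* overlapped *Timp2*, an inhibitor of metalloproteinases, while its Lin28a-RIP peak lay in *Usp36*. The *Usp36* ratio (log2 -5.99) therefore compares peaks in different genes. Over the tables, 86.1% of Lin28a-RIP and 80.6% of Igf2bp3-RIP peaks lay in the gene they were named for (RefSeq positions of GRCm38.p6), and with only those peaks 1522 of 2047 genes passed the test, 768 higher and 754 lower.

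**Figure D3:**
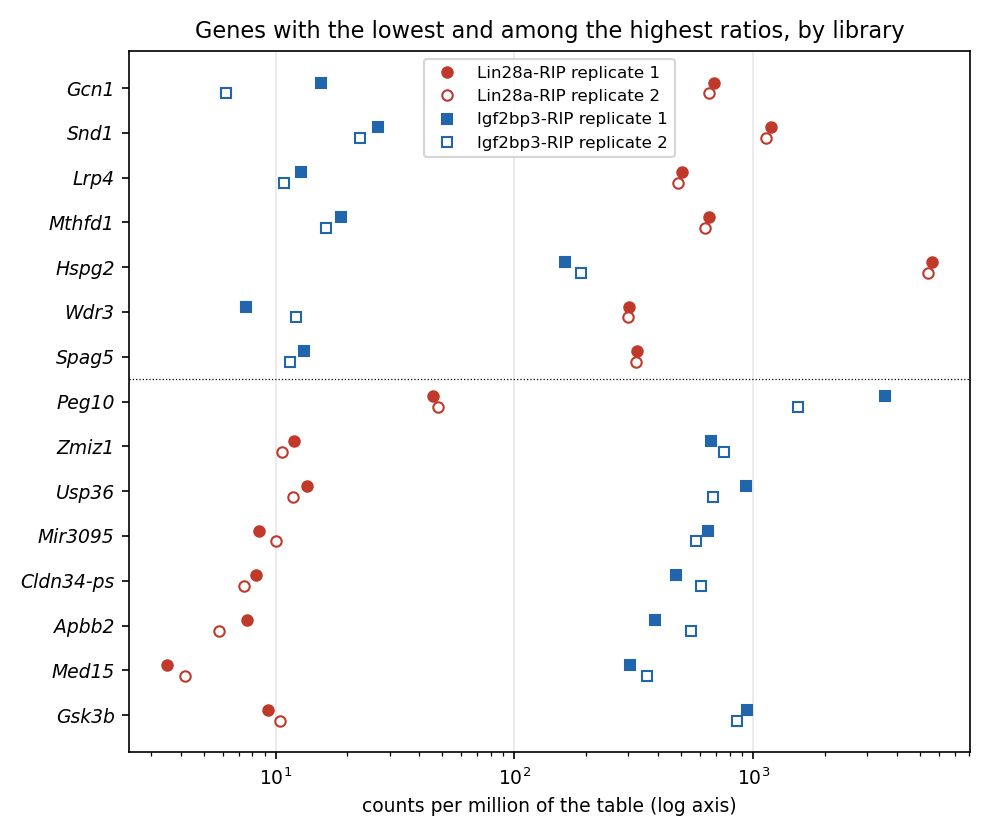
CPM (log axis) of 7 genes among the highest ratios and the 8 with the lowest, in the 2 Lin28a-RIP libraries (red circles) and the 2 Igf2bp3-RIP libraries (blue squares), replicate 1 filled and replicate 2 open. No library of one pull-down reaches the range of the other for any of the 15 genes, which the choice of these genes required.

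Counted only in peaks that overlapped by at least 50% of both widths (closely overlapping peaks), 1101 of 2288 genes (48.1%) passed, 378 (16.5%) higher and 723 (31.6%) lower in Lin28a-RIP. Such peaks could still differ in width, and their counts were not divided by it. The median log2 ratio over these genes was -0.21. The total counts and the closely overlapping peaks were called in the same direction for 1026 genes and in opposite directions for 9. *Hspg2* led the higher genes here with a log2 ratio of 2.15 (SE 0.18, adjusted p = 0.00425), ahead of *Col4a1* (2.03, adjusted p = 0.00383), a chain of type IV collagen, and *Lrp1* (1.81, adjusted p = 0.0254), an endocytic receptor. The row *1700094J05Rik* (2.02, adjusted p = 0.00425) also overlaps *Pcnt*, which encodes pericentrin of the centrosome. The lowest were *Ncoa6* (-2.88, adjusted p = 0.00383), a nuclear receptor coactivator, *Sap130* (-2.84, adjusted p = 0.00466), a subunit of the Sin3 corepressor complex, *Rad23b* (-2.82, adjusted p = 0.00383), which recognises damaged DNA with Xpc, and *Mbnl1* (-2.79, adjusted p = 0.00383), a splicing factor of muscle differentiation. The *Rad23b* peak of Lin28a-RIP, chr4:55370045-55370273, lay within the wider Igf2bp3-RIP peak, chr4:55370034-55370421.

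*H19*, an imprinted noncoding RNA of embryonic muscle that hosts *Mir675*, held the largest share of Igf2bp3-RIP. Its single Igf2bp3-RIP peak, chr7:142575588-142578115, spanned 2528 bp and carried 10.4% and 7.79% of all Igf2bp3-RIP counts, and 5.05% and 6.19% in the control Igf2bp3-RIP libraries. The single Lin28a-RIP peak, chr7:142575941-142576197, lay within it, spanned 257 bp and carried 0.269% and 0.293%. *H19* was lower in Lin28a-RIP by total counts (log2 ratio -5.02, SE 0.37, adjusted p = 0.000444) and per kilobase (-1.72, adjusted p = 0.0184), and after centring it gave -1.25 with an adjusted p of 0.0539. *Ahnak*, a giant scaffold protein, held the largest share of both Lin28a-RIP libraries. Its values were 27248 and 27567 CPM against 7612 and 21981 CPM, with the Igf2bp3-RIP replicates far apart, and the difference did not pass (log2 ratio 0.89, SE 0.56, adjusted p = 0.209). *Nedd4*, a ubiquitin ligase, was higher in Lin28a-RIP at 9984 and 9789 CPM against 6942 and 6063 CPM (log2 ratio 0.60, SE 0.19, adjusted p = 0.0389), as were the actin crosslinker *Flna* (log2 ratio 1.90, SE 0.51, adjusted p = 0.0257) and the non-muscle myosin *Myh9* (log2 ratio 1.60, SE 0.47, adjusted p = 0.0334). *Nedd4* was also higher per kilobase (0.98, adjusted p = 0.0192) but did not pass in closely overlapping peaks (0.53, adjusted p = 0.0746). *Flna* did not pass per kilobase (0.55, adjusted p = 0.398) or after centring (1.02, adjusted p = 0.196), and *Myh9* did not pass per kilobase (0.50, adjusted p = 0.41), after centring (0.96, adjusted p = 0.188) or in closely overlapping peaks (1.15, adjusted p = 0.0934). The row named *Zim1* (9096 and 9210.2 CPM against 7507 and 7971 CPM, log2 ratio 0.24, SE 0.18, adjusted p = 0.271) lay over *Peg3*, an imprinted zinc finger gene, with nearly the same peak in both pull-downs (chr7:6703924-6712120 in Lin28a-RIP, chr7:6703923-6712119 in Igf2bp3-RIP). The peaks named *Peg3* itself gave 1807 and 1778 CPM against 1455 and 1402 CPM (log2 ratio 0.33, SE 0.12, adjusted p = 0.0624), and in closely overlapping peaks they were higher in Lin28a-RIP (0.49, adjusted p = 0.0293). Of the imprinted transcripts, *H19* and *Peg10* were lower in Lin28a-RIP by total counts, *Igf2r*, the mannose-6-phosphate and Igf2 receptor, was higher (log2 ratio 2.57, SE 0.12, adjusted p = 0.000189), and *Peg3* was not called.

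Gene lists were described by the ratios of their members, beside the 35.3% of all shared genes that were higher and the 39.0% that were lower in Lin28a-RIP. Long transcripts of the cytoskeleton and matrix lay mostly on the Lin28a-RIP side, with 35 of 46 members higher, 2 lower and a median log2 ratio of 1.68. The list took 19.2% and 19.1% of the Lin28a-RIP counts and 4.37% and 8.73% of the Igf2bp3-RIP counts. The type IV collagen gene *Col4a2* (5880.2 and 5559 CPM against 306 and 525 CPM), the fibrillar collagen gene *Col5a1* (2949.7 and 2802 CPM against 205 and 251 CPM) and fibronectin, *Fn1* (8747 and 8712 CPM against 1525 and 2820.1 CPM), were higher in Lin28a-RIP. *Sparc*, a collagen-binding matrix glycoprotein, went the other way, with 99.8 and 97.2 CPM against 1334 and 1753 CPM (log2 ratio -3.97, SE 0.19, adjusted p = 0.000189), and so did *Ank3*, an ankyrin, at a log2 ratio of -2.01. In closely overlapping peaks, 25 of 44 members of the list were higher and 1 was lower, with a median log2 ratio of 1.08 against -0.21 over all genes tested. Per kilobase 7 of 46 were higher and 3 lower (median 0.41 against -0.47 over all genes), and after centring 17 were higher and 1 lower.

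Growth-signalling kinases lay on the Igf2bp3-RIP side. Of 39 members in both tables, 26 were lower in Lin28a-RIP and 6 higher, with a median log2 ratio of -1.42. In closely overlapping peaks 23 of 35 were lower and 1 was higher. Per kilobase 27 of 39 were lower and none higher (median -0.88), and after centring 12 were lower and 1 higher. After *Gsk3b*, the lowest were *Pik3r1*, the regulatory subunit of PI3-kinase (3.28 and 2.77 CPM against 84.0 and 86.4 CPM), and *Csnk1a1*, casein kinase 1α (18.3 and 18.7 CPM against 566 and 409.8 CPM). The catalytic subunit *Pik3ca* was at 53.5 and 51.9 CPM against 403 and 432 CPM (log2 ratio -2.99, SE 0.11, adjusted p = 0.000155). The growth kinase *Mtor* was among those higher in Lin28a-RIP (192 and 191 CPM against 65.0 and 63.6 CPM, log2 ratio 1.58, SE 0.10, adjusted p = 0.000326). A further 11 kinases of the list, among them *Braf*, *Akt2* and *Src*, had peaks in Igf2bp3-RIP only, and 2, *Epha2* and *Csnk2a1*, in Lin28a-RIP only. These are 21.2% and 3.85% of the 52 kinases with a peak, against 33.9% and 14.3% of all 5282 genes with a peak.

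Zinc finger genes named Zfp leaned the same way. Of 128 with a peak, 52 had peaks in both pull-downs, 59 (46.1%) in Igf2bp3-RIP only and 17 (13.3%) in Lin28a-RIP only, beside 33.9% and 14.3% of all genes with a peak. Of the 52, 35 were lower in Lin28a-RIP and 7 higher (median log2 ratio -1.05). Per kilobase 33 were lower and none higher (median -0.68), and after centring 8 were lower and 2 higher. *Zfp827*, a telomeric factor, was lowest with 4.67 and 5.25 CPM against 172 and 191 CPM (log2 ratio -5.19, SE 0.16, adjusted p = 0.000146), followed by *Zfp521* at a log2 ratio of -4.84, and *Zfp469* was highest at 2.74 by total counts. *Zfp469* changed sign, without passing, per kilobase (-0.64), after centring (-0.17) and in closely overlapping peaks (-0.14). Chromatin genes were spread over both sides, with 16 of 53 higher, 20 lower and a median of -0.07. Per kilobase 3 were higher and 22 lower (median -0.41), after centring 9 were higher and 6 lower, and in closely overlapping peaks 9 of 48 were higher and 16 lower. The demethylase *Kdm4a* (137 and 145 CPM against 10.9 and 8.73 CPM) stood at the upper end and the methyltransferase homologue *Setd5* (64.6 and 64.9 CPM against 1126 and 933 CPM) at the lower end, while the acetyltransferases *Crebbp* (log2 ratio -1.30, SE 0.11, adjusted p = 0.000621) and *Ep300* (log2 ratio -0.88, SE 0.15, adjusted p = 0.00572) were lower in Lin28a-RIP.

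Genes of DNA replication lay towards Lin28a-RIP. All 14 members in both tables passed the test, 10 higher and 4 lower (median log2 ratio 1.43), 9 more (34.6% of the 26 with a peak, against 14.3% of all genes with a peak) had peaks in Lin28a-RIP only and 3 (11.5% against 33.9%) in Igf2bp3-RIP only. Of the MCM helicase, which unwinds DNA at the fork, *Mcm3* (577 and 542 CPM against 66.7 and 44.4 CPM), *Mcm4* (812 and 810.0 CPM against 263 and 223 CPM) and *Mcm6* (405 and 404 CPM against 41.8 and 33.9 CPM) were higher in Lin28a-RIP. *Mcm2*, *Mcm5* and *Mcm7* had Lin28a-RIP peaks only, *Mcm2* with 6 peaks at 154 and 143 CPM and the others with 1 peak each. Per kilobase *Mcm4* alone of the 3 shared subunits passed (0.76, adjusted p = 0.015), also after centring. Of all 14 members, 2 were higher and 1 was lower per kilobase (median 0.05), and 4 were higher and none lower after centring. By total counts *Dbf4*, the activator of the kinase Cdc7 (log2 ratio -1.45, SE 0.16, adjusted p = 0.00142), was lower, as was the row *Orc4* (log2 ratio -3.01), of whose counts 60.8% in Lin28a-RIP and 47.2% in Igf2bp3-RIP lay inside the gene. Of 44 genes of mitosis and chromosome segregation, 27 were higher and 5 lower (median 0.82). Per kilobase 8 were higher and 4 lower (median 0.00137), and after centring 12 were higher and 2 lower. The separase gene *Espl1* was highest (242 and 217 CPM against 14.0 and 9.02 CPM, log2 ratio 4.34, SE 0.27, adjusted p = 0.000294) and the row *Plk4* lowest (log2 ratio -1.82), although only 10.4% of its Lin28a-RIP counts lay inside that gene, and the next lowest was *Esco2*, an acetyltransferase of cohesin (12.2 and 12.5 CPM against 45.3 and 31.9 CPM, log2 ratio -1.64, SE 0.23, adjusted p = 0.00289). The mitotic cyclin genes *Ccna2* (608 and 494 CPM) and *Ccnb1* (96.6 and 74.7 CPM) had peaks in Igf2bp3-RIP only.

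DNA repair genes were divided between the pull-downs. The 21 repair genes that the study assayed by RIP-qPCR all had peaks in both. The study chose them on these samples, so their count is no independent evidence. Of these, 8 were higher and 6 lower in Lin28a-RIP and 7 did not pass (median log2 ratio 0.33). Per kilobase 1 was higher and 6 lower (median -0.20), after centring 3 were higher and 2 lower, and in closely overlapping peaks 3 of 20 were higher and 6 lower (median -0.09). 3 of them, *Usp1*, *Fancm* and *Fbxw7*, differed in layout, and the RIP-qPCR primers that it lists for them are shown as the sequences it used to read these transcripts.
Usp1 forward: atgcctggcgtcatacctagt
Usp1 reverse: gcagcttactggggaggac
Fancm forward: aggagtggcattgcctcagtct
Fancm reverse: gtgtaggaagcggacgatcttg
Fbxw7 forward: cgagacttcatctccttgcttcc
Fbxw7 reverse: ccagagaaggttatcctcagcc
*Usp1*, the deubiquitinase of Fancd2, had 3 peaks in each pull-down and was lower in Lin28a-RIP, at 99.5 and 110.0 CPM against 385 and 309 CPM (log2 ratio -1.73, SE 0.15, adjusted p = 0.000758). The largest Lin28a-RIP peak, chr4:98933963-98934720, lay inside the largest Igf2bp3-RIP peak, chr4:98933962-98935403, and the second pair, chr4:98930748-98931403 and chr4:98930749-98931427, coincided almost to the base. *Usp1* was also lower per kilobase (-1.28, adjusted p = 0.00901). *Fancm*, the DNA translocase of the Fanconi core, had 6 peaks in each and 41.2 and 38.3 CPM against 31.9 and 29.7 CPM, a difference that did not pass (log2 ratio 0.37, SE 0.13, adjusted p = 0.062). Its peak at chr12:65105612-65106753 held 39.1% of the Lin28a-RIP counts of the gene, and the one at chr12:65121532-65121961 held 35.6% of the Igf2bp3-RIP counts. *Fbxw7*, a substrate receptor of the SCF ubiquitin ligase, had 1 Lin28a-RIP peak (chr3:84978668-84978941) near its 3′ end and 6 Igf2bp3-RIP peaks, of which the largest, chr3:84903420-84904037, lay at 54.0% of the gene and held 32.3% of its counts, with 4.86 and 5.84 CPM against 51.4 and 70.9 CPM (log2 ratio -3.52, SE 0.24, adjusted p = 0.000376).

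In other repair lists, homologous recombination and Fanconi genes had 7 of 17 higher and 4 lower (median 0.37), checkpoint and end-joining genes 8 of 16 higher and 3 lower (0.96), and excision and mismatch repair genes 5 of 12 higher and 4 lower (0.60). The helicase *Recql* (3.61), the polymerase *Polq* (2.94), the checkpoint kinase *Atr* (2.74) and *Ddb1* (4.05), a damage sensor and ubiquitin ligase adaptor, were among the highest log2 ratios. *Recql* and *Polq* changed sign per kilobase, but not after centring. The Werner helicase *Wrn* (-2.82), the Smc5/6 partner *Slf2* (-2.66) and *Rad23b* (-4.43) had the lowest. *Ddb1* was the most abundant of these in Lin28a-RIP, with 20 peaks and 3407 and 3301 CPM against 232 and 172 CPM. Per kilobase, no gene of these 3 lists was higher in Lin28a-RIP and 4, 4 and 3 were lower (medians -0.33, -0.08 and -0.35 against -0.47 over all genes). After centring, 1 homologous recombination or Fanconi gene was higher and 1 lower, 3 checkpoint or end-joining genes were higher and none lower, and 3 excision or mismatch repair genes were higher and 1 lower. In closely overlapping peaks, 2 of 14, 3 of 15 and 4 of 10 genes of these lists were higher and 3, 2 and 4 lower. The medians were -0.06, 0.31 and 0.16 there, against -0.21 over all genes tested.

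Transcripts for let-7 processing and for the m6A machinery fell on both sides. No let-7 host gene named Mirlet7 had a peak in either table. Among 17 genes of the let-7 and Lin28 pathway, 5 were higher and 7 lower in Lin28a-RIP (median -0.11). Per kilobase none was higher and 8 were lower (median -0.56), and after centring 2 were higher and 2 lower. Among the lower genes were the Argonaute gene *Ago2* (197 and 191 CPM against 908 and 1081 CPM, log2 ratio -2.36, SE 0.14, adjusted p = 0.000263), the microprocessor nuclease *Drosha* (log2 ratio -1.12, SE 0.09, adjusted p = 0.000647) and the uridylyltransferase *Tut4* (log2 ratio -1.26, SE 0.10, adjusted p = 0.000583), which Lin28a recruits to let-7 precursors. The nuclear exporter of microRNA precursors, *Xpo5*, was higher by total counts with 12 peaks against 1 (226 and 226 CPM against 23.1 and 16.1 CPM, log2 ratio 3.54, SE 0.22, adjusted p = 0.000295), and per kilobase it gave -0.18 (adjusted p = 0.49), or 0.29 (adjusted p = 0.337) after centring. Of 21 reported let-7 and Lin28 target mRNAs with a peak, 10 were in both tables, 10 in Igf2bp3-RIP only (47.6% against 33.9% of all genes with a peak) and 1 in Lin28a-RIP only. Of the 10 shared targets, 3 were higher in Lin28a-RIP, one of them *Igf2bp3*, and 5 were lower (median -0.39), while per kilobase none was higher and 5 were lower and after centring 1 was lower. Those in Igf2bp3-RIP only included *Igf2bp2* (436 and 527 CPM), *Ccnd3* (534 and 382 CPM) and *Myc* (20.0 and 15.7 CPM). The cyclin gene *Ccnd2* (705 and 718 CPM against 1724 and 3491 CPM) and the kinase gene *Mapk6* (33.8 and 36.8 CPM against 737 and 1038 CPM) were shared and lower in Lin28a-RIP. *Hmga2*, an embryonic chromatin protein and classical let-7 target, had 3 short Igf2bp3-RIP peaks (69.3 and 311 CPM), and the row *9230105E05Rik* overlaps the same gene with one 3164 bp peak at chr10:120361283-120364446 (485 and 2279.6 CPM). Both rows were over 4-fold apart between the Igf2bp3-RIP replicates.

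The mRNA of *Igf2bp3* itself was pulled down by both antibodies. It had 7 Lin28a-RIP peaks and 2 Igf2bp3-RIP peaks, with 126 and 127 CPM in Lin28a-RIP, 43.4 and 39.1 CPM in Igf2bp3-RIP and 15.3 and 13.3 CPM in control Igf2bp3-RIP (log2 ratio 1.62, SE 0.13, adjusted p = 0.000525). In closely overlapping peaks the log2 ratio was -0.04 (adjusted p = 0.798), and per kilobase it was -0.53 (adjusted p = 0.0297), or -0.07 (adjusted p = 0.723) after centring. Its RNA was at 35.8 and 34.3 input CPM in Lin28a+ cells and 11.3 and 10.7 in control cells. Of 14 shared genes of the Igf2bp family and the m6A machinery, 8 were higher in Lin28a-RIP and 3 lower (median 0.65). Per kilobase none was higher and 6 were lower (median -0.46), and after centring 3 were higher and 2 lower. The m6A reader *Ythdc2* (136 and 128 CPM against 7.37 and 6.94 CPM) was higher in Lin28a-RIP, the demethylase *Alkbh5* (20.3 and 16.0 CPM against 118 and 92.2 CPM) and *Fmr1* (258 and 256 CPM against 774 and 835 CPM), which encodes the fragile X protein, were lower, and *Wtap* (25.8 and 17.9 CPM), a subunit of the methyltransferase complex, had Igf2bp3-RIP peaks only. Of 34 stress granule and P-body genes in both tables, 9 were higher and 13 lower (median -0.09). Per kilobase 1 was higher and 16 were lower (median -0.55), after centring 3 were higher and 3 lower, and in closely overlapping peaks 5 of 33 were higher and 13 lower. The lowest were *Eif4g2*, a translation initiation factor (391 and 394 CPM against 3227 and 2814 CPM), and *Pabpc1*, the cytoplasmic poly(A)-binding protein (1492 and 1502 CPM against 8814 and 7457 CPM, log2 ratio -2.44, SE 0.18, adjusted p = 0.000469). The granule scaffold genes *Caprin1* (log2 ratio -0.46, SE 0.15, adjusted p = 0.0465) and *G3bp2* (log2 ratio -0.41, SE 0.14, adjusted p = 0.0486) were lower by a smaller step, and the G-quadruplex helicase *Dhx36* was higher (log2 ratio 2.13, SE 0.10, adjusted p = 0.00019).

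Myogenic genes fell on both sides. Among 39 with input or RIP values, 10 were shared, 7 had Lin28a-RIP peaks only and 7 Igf2bp3-RIP peaks only, each 29.2% of the 24 with a peak, beside 14.3% and 33.9% of all genes with a peak. Of the 10, 4 were higher and 3 lower in Lin28a-RIP, per kilobase 1 was higher and 1 lower, and after centring 3 were higher and none lower. The transcription factor genes *Myod1* (631 and 314 CPM) and *Myf5* (243 and 159.6 CPM) and the cofactor *Eya1* (284 and 369 CPM) had Igf2bp3-RIP peaks only, and *Pax7* (16.4 and 16.3 CPM against 121 and 72.7 CPM, log2 ratio -2.56, SE 0.29, adjusted p = 0.00158), *Six4* (log2 ratio -2.75, SE 0.13, adjusted p = 0.00019) and *Mef2a* (log2 ratio -2.02, SE 0.52, adjusted p = 0.022) were shared and lower in Lin28a-RIP. The surface proteins *Itga7* (216 and 213 CPM), *Cdh15* (45.4 and 39.7 CPM) and *Notch3* (489.8 and 459 CPM) and the myosins *Myh3* and *Myh8* had Lin28a-RIP peaks only. *Notch1* (1424 and 1399 CPM against 191 and 139 CPM, log2 ratio 3.10, SE 0.20, adjusted p = 0.000333), *Notch2* (log2 ratio 3.66, SE 0.25, adjusted p = 0.000359) and titin, *Ttn* (log2 ratio 2.04, SE 0.21, adjusted p = 0.00114), were higher in Lin28a-RIP. *Myod1* had no Lin28a-RIP peak although it was at 4752 and 4775 input CPM.

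**Figure D4:**
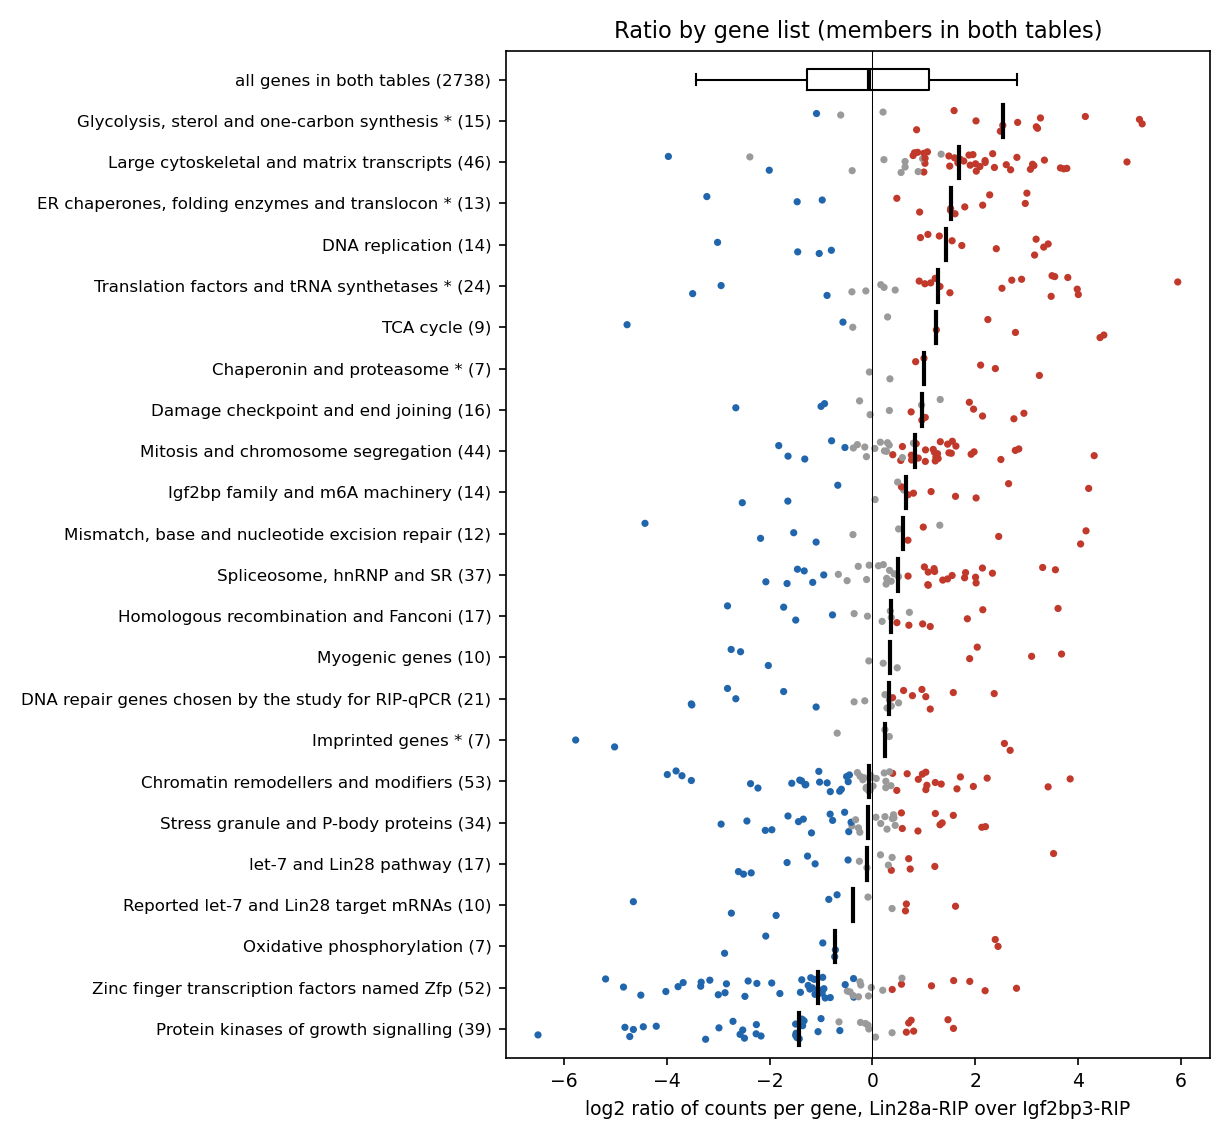
Log2 ratio of Lin28a-RIP to Igf2bp3-RIP for the members in both tables of each list with at least 5 such members, number of members in parentheses, red for higher, blue for lower and grey for not called, with a black bar at the median. The box gives all 2738 shared genes, with the quartiles, the median (-0.07) and whiskers at the 5th (-3.44) and 95th (2.81) percentiles; medians run from -1.42 for growth-signalling kinases to 2.54 for glycolysis, sterol and one-carbon synthesis, and lists marked with a star were added after values were seen.

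Ribosomal protein and oxidative phosphorylation genes mostly had no peak in either pull-down. Of 80 cytosolic ribosomal protein genes, 73 had no peak, beside 9876 of 15158 genes with input or RIP values, and the 3 shared rows had no peak inside the gene they are named for in either pull-down. Of 88 genes of oxidative phosphorylation, 74 had no peak, 7 were shared, 4 were in Lin28a-RIP only and 3 in Igf2bp3-RIP only (28.6% and 21.4% of the 14 with a peak). Of the 7 shared rows 2 were higher and 5 lower in Lin28a-RIP (median -0.73), per kilobase 3 were higher and 2 lower, and after centring 3 were higher and none lower. Only *Ndufs1* of the 7 shared rows, a subunit of complex I, had all its counts inside the gene in both pull-downs, and it was higher in Lin28a-RIP (806 and 796 CPM against 146 and 160.2 CPM, log2 ratio 2.39, SE 0.11, adjusted p = 0.000188). Among TCA cycle genes, 8 of 29 had no peak, and of 9 shared genes 5 were higher and 2 lower (median 1.24), with the aconitase *Aco1* (log2 ratio 4.53, SE 0.26, adjusted p = 0.000254) and citrate lyase *Acly* (log2 ratio 4.43, SE 0.13, adjusted p = 0.000146) at the top and *Idh3a*, a subunit of isocitrate dehydrogenase (log2 ratio -4.77, SE 0.14, adjusted p = 0.000146), at the bottom, and *Sdha* of complex II had 13 Lin28a-RIP peaks (749.6 and 745 CPM) and none in Igf2bp3-RIP. Of 75 spliceosome, hnRNP and SR genes 28 had no peak, and of 37 shared genes 18 were higher and 6 lower (median 0.51), from the splicing factor *Sf3a1* (log2 ratio 3.56, SE 0.14, adjusted p = 0.000155) to *Hnrnpab* (log2 ratio -2.07, SE 0.49, adjusted p = 0.0169). Per kilobase 4 were higher and 4 lower (median -0.11), after centring 12 were higher and 1 lower, and *Sf3a1* gave -0.19 per kilobase and 0.27 after centring, neither past the threshold. Of the TCA cycle genes, 2 were higher and 2 lower per kilobase, and 3 and 1 after centring. Of 6 noncoding RNA genes of the list with input or RIP values, 3 were shared and 2 had Igf2bp3-RIP peaks only. *Norad*, which sequesters Pumilio proteins, was lower in Lin28a-RIP with 38.2 and 42.6 CPM against 630.2 and 353 CPM (log2 ratio -3.60, SE 0.33, adjusted p = 0.000837), and *Tug1* had 5 peaks in Igf2bp3-RIP only (851 and 1157 CPM).

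Lists added after the values had been seen are no evidence of their own, and most of them, though not the integrin and imprinted genes, describe the upper end of the ratio. For translation factors and tRNA synthetases, 16 of 24 shared genes were higher and 3 lower (median 1.27), and of 37 with a peak 11 (29.7%) had Lin28a-RIP peaks only and 2 (5.41%) Igf2bp3-RIP peaks only, beside 14.3% and 33.9% of all genes with a peak. The cysteinyl and arginyl synthetases *Cars* (214 and 193 CPM against 12.4 and 12.9 CPM) and *Rars* (301 and 303 CPM against 25.4 and 18.0 CPM) and the initiation factor *Eif3b* (546 and 526 CPM against 37.3 and 30.4 CPM) were among them. For endoplasmic reticulum chaperones and translocon genes, 10 of 13 were higher and 3 lower (1.52), with the chaperone *Hspa5* (2088 and 2069 CPM against 650.1 and 547 CPM) and the folding sensor *Uggt1* (1499 and 1555 CPM against 197 and 184 CPM) above and *Ssr3* (116 and 116 CPM against 1195 and 974 CPM) below. For glycolysis, sterol and one-carbon synthesis, 12 of 15 were higher and 1 lower (2.54), among them fatty acid synthase, *Fasn* (log2 ratio 3.21, SE 0.13, adjusted p = 0.000157), and the phosphofructokinase *Pfkp* (log2 ratio 4.13, SE 0.16, adjusted p = 0.000155). Chaperonin and proteasome genes had 5 of 7 higher and none lower, and of 16 with a peak 8 (50%) had Lin28a-RIP peaks only and 1 (6.25%) Igf2bp3-RIP peaks only. Per kilobase, translation factors and tRNA synthetases had 3 genes higher and 3 lower (median 0.10), endoplasmic reticulum genes 4 and 2 (0.07), glycolysis, sterol and one-carbon genes 3 and 2 (0.20), and chaperonin and proteasome genes none. After centring these lists had 8 higher and 1 lower, 5 and 1, 8 and 1, and 2 and 0. Of 4 shared integrin genes, 1 was higher and none lower, per kilobase none was higher and 1 lower, and after centring none was called. Of 7 shared imprinted genes, 2 were higher, *Igf2r* and the row *Airn* with no peak inside that gene, and 2 were lower, while per kilobase 2 were higher and 1 lower and after centring 3 were higher and none lower.

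Genes with peaks in one pull-down only were ranked by their share. *Eef2*, the elongation factor that moves the ribosome along mRNA, had the largest share of the Lin28a-RIP-only genes, with 4 peaks and 3096 and 2914 CPM. It was at 6890 and 6933 input CPM. The pyruvate kinase gene *Pkm* followed with 6 peaks and 2810.1 and 2664 CPM, and the row *Gramd2* (1455 and 1341 CPM) overlaps *Pkm* in its largest peak, chr9:59678583-59679273. The endoplasmic reticulum chaperone *Hyou1* (1095 and 1033 CPM) and the proteasome subunit *Psmd2* (916 and 876 CPM) had 7 and 10 peaks, and the 8 peaks named *Mir6923* (903 and 857 CPM) all overlap *Myh3*, the embryonic myosin heavy chain. Replicate 1 was slightly above replicate 2 for all of these rows. Among Igf2bp3-RIP-only genes, *Ccng1*, a p53-induced cyclin, had 5 peaks and 2095 and 1865 CPM, and *Cnn3*, a calponin, had 4 peaks and 1508 and 1312 CPM. The row *Cdca7* (1353 and 1767 CPM) overlaps *Map3k20* in its main peak, chr2:72401864-72407404.

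*Lrch3* and *Itga9* were also among the 6 largest Igf2bp3-RIP-only rows but rested on 1 library. *Lrch3* was at 3799.8 and 44.5 CPM and *Itga9* at 3602 and 60.1 CPM in replicates 1 and 2, and *Slc25a33*, *Kpna1* and *Arhgef26* showed the same pattern, with log2 differences between replicates of 5.91 to 6.85 over these 5 rows. The control Igf2bp3-RIP libraries had it too, at 8115 and 94.8 CPM for *Lrch3* and 13741 and 120.1 CPM for *Itga9*, so replicate 1 was high in both kinds of cell. Of these 5, the peaks of *Arhgef26*, *Slc25a33* and *Kpna1* lay outside the gene. The *Lrch3* peak with 99.6% of these counts, chr16:33001812-33002193, overlaps the annotated 5S RNA gene *n-R5s33*. The part of that repeat in the values was not tested.

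Along genes, Igf2bp3-RIP counts lay further towards the 3′ end. Among shared genes whose peaks could be placed by strand, the final 10% of the gene span, introns included, held 21.3% and 21.2% of the Lin28a-RIP counts and 29.2% and 29.6% of the Igf2bp3-RIP counts. The first 50% of the span held 31.1% and 31.2% against 24.0% and 24.5%. The libraries of each pull-down lay closer to each other than to the other pull-down in both. Gene by gene the shift was small, with 910 of 1630 genes (55.8%) further towards the 3′ end in Igf2bp3-RIP and a median difference of 0.33% of the gene. Genes higher in Lin28a-RIP had a median position of 61.7% of the gene in Lin28a-RIP and 66.0% in Igf2bp3-RIP, and genes lower in Lin28a-RIP had 78.3% and 76.8%. Genes are not independent replicates and no test was run on the position.

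**Figure D5:**
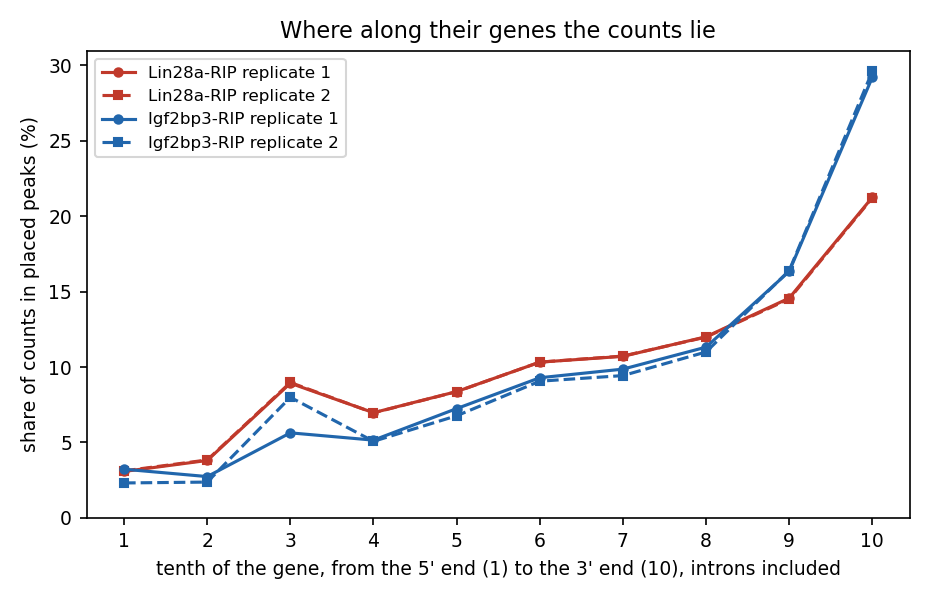
Share of counts in placed peaks (vertical, %) in steps of 10% of the gene from the 5′ end to the 3′ end (horizontal), for the 2 Lin28a-RIP libraries (red) and the 2 Igf2bp3-RIP libraries (blue) over shared genes. In the final 10% the blue lines reach 29.2% and 29.6% and the red lines 21.3% and 21.2%.

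The RNA of the genes was compared between Lin28a+ and control input, with the limit that the Lin28a+ columns bear the name of the m6A pull-down. Of 11317 genes tested, 6432 (56.8%) passed in edgeR's quasi-likelihood test, 3184 (28.1%) higher and 3248 (28.7%) lower in Lin28a+ cells, while DESeq2 called 3039. Shared genes leaned to lower RNA, with 356 of 2314 higher and 1131 lower (median log2 fold change -0.28), and genes with Igf2bp3-RIP peaks only did as well, with 238 of 1446 higher and 606 lower (-0.21). Genes with Lin28a-RIP peaks only leaned the other way, with 240 of 589 higher and 104 lower (0.17), near the genes with no peak, of which 2328 of 6790 were higher and 1349 lower (0.15). Within the shared genes, those higher in Lin28a-RIP had 193 of 836 higher and 325 lower (-0.12), and those lower in Lin28a-RIP had 87 of 907 higher and 510 lower (-0.40). *Mcm2* (log2 fold change 1.23, adjusted p = 1.17e-05) and *Col4a1* (0.94, adjusted p = 1.29e-05) rose in Lin28a+ cells, and *Ccnd2* (-2.30, adjusted p = 1.97e-06) and *Gsk3b* (-0.67, adjusted p = 6.26e-05) fell. *Ccna2*, with Igf2bp3-RIP peaks only, rose (0.97, adjusted p = 1.54e-05), and *Myod1* gave 0.01 (adjusted p = 0.605). Genes are not replicates, so these counts are a description of how the classes lay in the RNA comparison.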

How the data were processed

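The values are the peak counts that the authors deposited for Lin28a-RIP and Igf2bp3-RIP, whole numbers per peak and library, not normalized. The gene values of the input are estimated counts with decimals, not normalized, as the authors made them, and were rounded to whole numbers before testing. The submitters' notes name FastQC, HISAT2 2.0.4, MACS2 1.4.3 and DESeq2 1.42.0 and list the builds GRCh38 and mm10. The peak threshold, the pooling of libraries, any IgG control and the counting program are not given in the sources used here. Peaks were called separately in each table, so pull-down and peak set cannot be told apart.

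Counts of all peaks with 1 gene identifier were summed and divided by the table's total. Genes in both tables were tested with edgeR 4.0.16 (quasi-likelihood, table total as library size, no filter, R 4.3.3), and the input with edgeR after TMM scaling and filterByExpr. Adjusted p-values are Benjamini-Hochberg values over all genes of a test, all tests are two-sided, and 0.05 was the threshold. The SE is that of the fitted log2 ratio. Peak positions are those of the tables, set against RefSeq GRCm38.p6. Alternatives used TMM, DESeq2 1.42.0, limma 3.58.1 (voom), other peaks or other filters. Counts were simulated with 200 of 2738 genes changed and 1 common spread for all genes and both pull-downs. There the ratio test called 82% of genes changed 2-fold, 100% of those changed 4-fold and 5 unchanged genes. In the data the spread differed between the pull-downs and most genes were called, so these rates cannot be carried over to it.

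Named genes were the 8 highest and 8 lowest ratios among genes with an adjusted p under 0.05 and libraries of the pull-downs that did not overlap. The same rule gave the 4 highest and 4 lowest in peaks overlapping by at least 50%. The 6 largest shares, the 6 largest in each table only, and members of 24 lists were also named. Genes named from lists were picked after their values were seen, as were 6 further lists and *Igf2bp3*, *Pcnt* and the rows with replicates far apart. The members and lists were chosen with earlier results of these data known. Lin28a and some other genes that these rules name are not reported here.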

Additional observations from a re-analysis of the deposited data

How the results depend on the processing

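The count of genes that passed the ratio test (2035 of 2738) was 2030 with TMM factors, 2014 scaled to the genes in both tables, 2090 with DESeq2, 2078 with limma voom, 1452 of 2618 in peaks overlapping by 1 bp or more and 1522 of 2047 in peaks inside their gene, an alternative chosen after seeing the data. It was 1019 of 1422 with at least 1000 counts in every library, where fewer genes were tested, 1218 per kilobase of peaks, 661 per kilobase with the median gene moved to 0, also chosen after seeing the data, and 1101 of 2288 in peaks overlapping by at least 50%. Leaving out 1 library gave 1684 to 2530 genes, more without an Igf2bp3-RIP library and fewer without a Lin28a-RIP library; the lone library was then assumed to vary like the other pull-down. The replicate differences of the pull-downs had an r of -0.05 over 2738 genes, which cannot show whether the replicate numbers pair the libraries. The fit with a replicate block called 2003. For the input no paired analysis was possible because the Lin28a+ columns bear the names of m6A pull-down libraries, whose numbers were not taken as those of input samples.

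In the input, edgeR called 6432 genes, DESeq2 3039, edgeR on total counts 6441 and without a filter 6396, and leaving out 1 library 5400 to 5805; the cause of the lower DESeq2 count was not tested. By transcript identifier 4683 were in both tables, 2187 in Lin28a-RIP only and 2707 in Igf2bp3-RIP only. The median RNA level, over the mean of the libraries, was 4.55 for shared genes, 4.52 for Lin28a-RIP only and 4.24 for Igf2bp3-RIP only. With a pseudocount of 0.1 it was 4.49, 4.47 and 4.16, with unlisted genes at 0 it was 4.28, 4.08 and 3.87, and with 1 library left out it was 4.53 to 4.57, 4.52 to 4.53 and 4.22 to 4.25.

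Of 101 genes named from both tables, 42 kept direction and side of the threshold under every alternative that gave a value. Over 1441 values, 107 lost the call, 16 gained it and 13 changed sign. The sign changed per kilobase for *Igf2bp3* (-0.53), *Polq* (-0.23), *Recql* (-0.26), *Sf3a1* (-0.19), *Xpo5* (-0.18) and *Zfp469* (-0.64), on a scale where the median of all genes was -0.47. With the median gene moved to 0 it changed for *Igf2bp3* (-0.0664) and *Zfp469* (-0.17), neither past the threshold. It changed in peaks overlapping by 1 bp or more and by at least 50% for *Igf2bp3* (-0.0442 and -0.0442) and *Zfp469* (-0.14 and -0.14), and in peaks inside the gene for *Zim1* (-2.48). The cause was not tested. Among the 4 RIP libraries of Lin28a+ cells compared, depth was lowest in Igf2bp3-RIP replicate 1.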
